A study of Mus musculus with 11 samples.

Results

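Serpins are a family of proteins, most of which trap and inactivate serine proteases, and plasminogen activation is the protease cascade that several of them restrain. The genes described here were those of the serpin family whose symbol has a clade letter from a to i and a number, without the collagen chaperone Serpinh1, together with Plau, Plaur, Plat, Plg, F2r, F3, Tfpi, Tfpi2, Thbd, Anxa2, Spint1, Spint2, St14 and Slpi. A probe set, the group of oligonucleotides on the array that reports 1 transcript, was included where the array annotation names a single gene for it. By this rule 35 of the 8251 genes with such a probe set were found, with 47 of the 12422 probe sets tested. They comprised 27 probe sets of 22 serpin genes and 20 probe sets of 13 other genes. St14 had no probe set with 1 symbol here and was not analysed.

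The study compared mammary glands bearing PN1a lesions (5 samples), the hyperplastic outgrowth line with high tumor-forming potential, with glands bearing PN1b lesions (6 samples), the line with low tumor-forming potential. Both lines are p53-null (Trp53-/-) Balb/c mammary epithelium carried in the cleared mammary fat pads of wild-type female Balb/c hosts that were 3 weeks old at transplantation, and the glands were collected 8 weeks post-transplantation. PN1a and PN1b came from contralateral outgrowths of 1 mouse and had been passaged by serial transplantation, so each group represents a single line, and no gland without p53-null epithelium was analysed. RNA came from whole glands and therefore held the wild-type stroma, vessels, fat and immune cells of the host beside the transplanted epithelium, and more or fewer cells of a type cannot be told apart from more or less RNA per cell. The titles of 4 PN1b samples have the form of number ranges, and whether these were pools of mice is not stated, so a p-value here describes only how these arrays vary. The values are log2 of the intensity that the authors deposited for each probe set, on which a difference of 1 is a doubling.

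Urokinase (Plau) and tissue plasminogen activator (Plat) cut plasminogen to plasmin, which dissolves fibrin and degrades extracellular matrix, and the urokinase receptor (Plaur) holds this reaction at the cell surface. Some serpins inhibit the activators or plasmin, and other serpins inhibit thrombin, elastase, granzymes or cathepsins. In the mammary gland, plasminogen activation is known for its part in the remodelling of the gland after weaning, and maspin (Serpinb5) for its expression in normal mammary epithelium.

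A few features of the samples touch the results. PN1a 1 and PN1a 2 stood apart in 18S RNA, with intensities of 119 to 276 over 3 array probe sets against 3.07 to 32.7 in the other samples, and in Fos, with 4.02 and 3.87 against 7.94 to 9.29. The titles of PN1a 1 and PN1a 2 begin with a number, whereas those of PN1a 3 to 5 begin with the line name and a letter. What this naming stands for is not stated. Sample titles carry 1 of 3 endings, and no source used here says what they mean. All 5 PN1a samples, PN1b 5 and PN1b 6 share title ending 1, PN1b 2 has title ending 2, and PN1b 1, 3 and 4 have title ending 3. The labelled tissue was checked against its markers. Krt8, a keratin of luminal epithelium, ranged over 5.72 to 8.79 in PN1a and 8.26 to 9.36 in PN1b samples. Krt14, a basal keratin, ranged over 0.01 to 1.5 in PN1a and 0.20 to 2.15 in PN1b samples, close to the lowest value of the table, whereas Acta2, the smooth muscle actin of myoepithelium, ranged over 8.45 to 9.48 in PN1a and 9.28 to 10.1 in PN1b samples. The markers of a cell type did not all differ in 1 direction. Among luminal genes, of which 0 were called, the difference was -1.25 for Krt8, 2.63 for Krt19 and 1.41 for Muc1.

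Of the 47 probe sets, 3 (6.38%) were lower in PN1a lesions than in PN1b lesions and 0 were higher, by limma with a Benjamini-Hochberg adjusted p under 0.05 over all probe sets and a fold change of at least 1.5. Over all probe sets, 1.62% were called lower and 0.869% higher by the same rule. The 3 are annotated to 2 copies of Serpina1, the gene of alpha-1-antitrypsin. The number of members with an unadjusted p under 0.05 was 7, or 14.9%, against 18.9% of all probe sets. The median log2 fold change of the members was 0.10, against -0.01 over all probe sets, with 28 members above 0 and 19 below. Apart from the 4 Serpina1 probe sets, 37 of 43 members had a fold change within 1.5 in either direction. No member outside this 1 family passed the test.

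**Figure D1:**
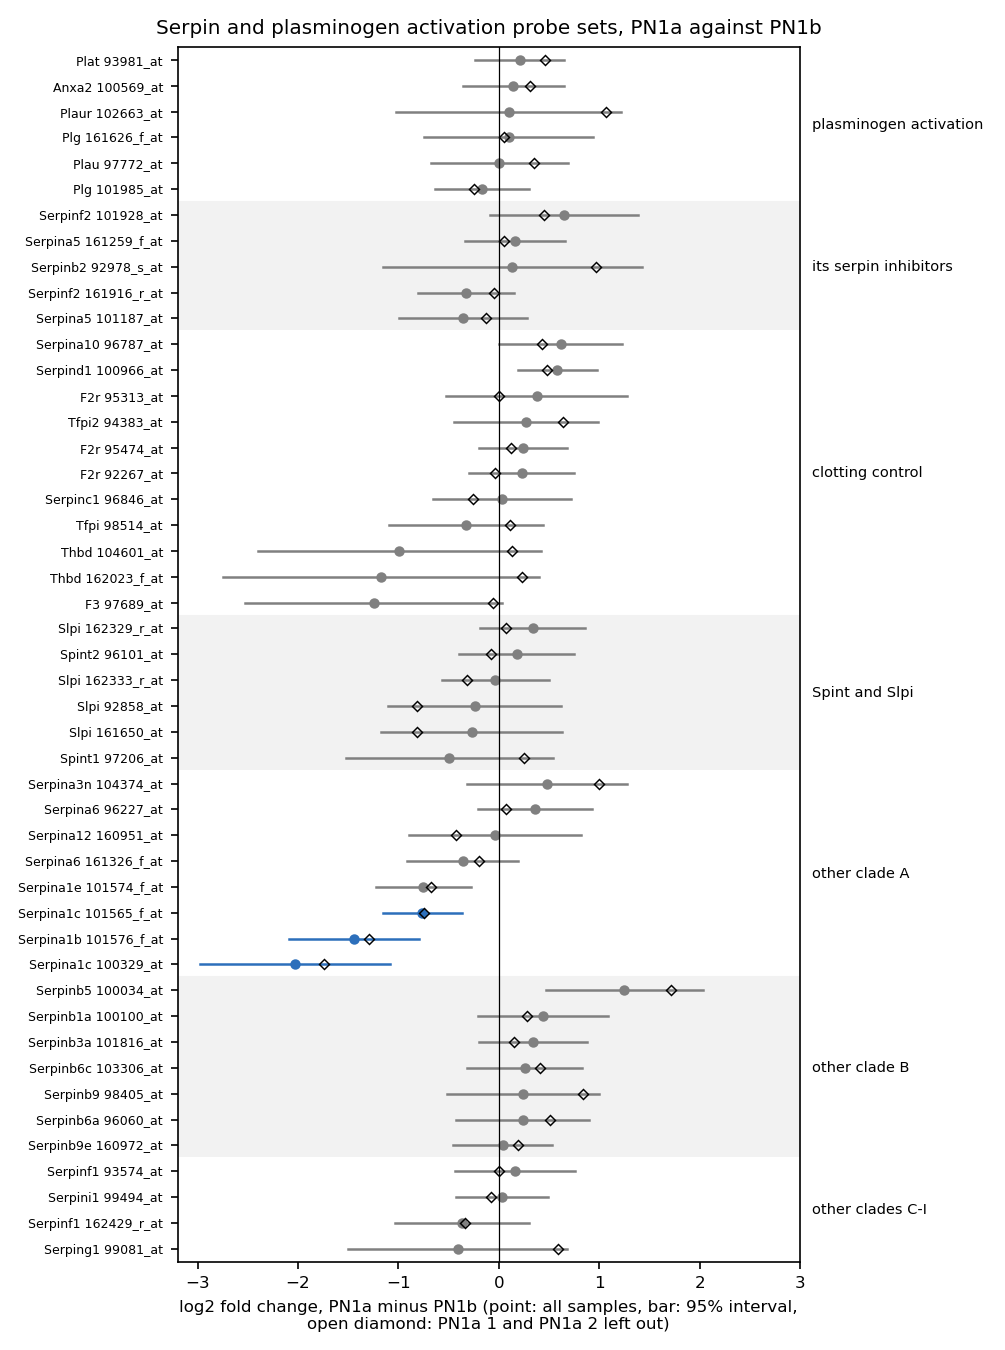
Log2 fold change, PN1a minus PN1b, of the 47 probe sets in groups by role, with filled points for all 11 samples, lines for the 95% interval of the limma fit, blue for the 3 probe sets called lower, and open diamonds for the value with PN1a 1 and PN1a 2 left out. The Serpina1 probe sets lie left of 0 with and without these 2 samples, whereas F3, Thbd and Serping1 move to near or above 0 without them.

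Alpha-1-antitrypsin is a secreted inhibitor of neutrophil elastase that is made mainly in the liver. Humans have a single gene for it, and the mouse has several near-identical copies, which lie side by side on chromosome 12. The copies also resemble each other in front of the start of transcription. Since the members that passed the test are copies of this gene, the same 60 bases of the RefSeq promoter windows (GRCm38.p6, minus strand) are shown for 4 copies. The capitals mark GTTAAT, a half-site of the sequence that the liver factor HNF1 recognizes.
Serpina1b, chr12:103738200-103738259: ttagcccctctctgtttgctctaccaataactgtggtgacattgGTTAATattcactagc
Serpina1c, chr12:103904962-103905021: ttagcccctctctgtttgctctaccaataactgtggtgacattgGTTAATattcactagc
Serpina1d, chr12:103773634-103773693: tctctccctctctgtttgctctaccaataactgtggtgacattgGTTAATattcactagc
Serpina1e, chr12:103956960-103957019: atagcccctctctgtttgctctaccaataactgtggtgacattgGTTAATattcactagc
The stretch was identical in Serpina1b and Serpina1c, which own the 3 called probe sets. That of Serpina1e differed from these at 1 position, that of Serpina1d at 4, and 55 of the 60 positions were the same in all 5 copies, Serpina1a included. GTTAAT, searched on both strands, occurred in 7.1% of the 32851 promoter windows of 300 bases in the table. Among the 27 member genes with a window it occurred in 5, which were Serpina1b, Serpina1c, Serpina1e, Spint1 and Tfpi2. A match of 6 letters describes the sequence and was not taken as a site.

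Serpina1b, read by probe set 101576_f_at, had 2.93, 2.77, 2.96, 2.90 and 3.79 in the PN1a samples, against 5.19, 5.03, 4.25, 4.90, 4.10 and 3.61 in the PN1b samples. All PN1a samples but PN1a 5 lay below every PN1b sample, and PN1a 5 lay above PN1b 6 alone. The mean was 3.07 ± 0.41 in PN1a and 4.51 ± 0.62 in PN1b (SD, n = 5 and 6), and by limma it fell by 1.44 on the log2 scale (SE 0.30, adjusted p = 0.0259).

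Serpina1c was read by 2 probe sets. In the first, 100329_at, the PN1a samples had 1.92, 0.00, 0.77, 1.18 and 3.09 and the PN1b samples had 4.03, 3.30, 3.28, 3.79, 3.19 and 2.95. The value of 0.00 in PN1a 2 is the lowest of the deposited table, an intensity of 1. The groups overlapped only through PN1a 5 and PN1b 6, and the difference was -2.03 (SE 0.44, limma adjusted p = 0.0305). In the second, 101565_f_at, the values were 4.08, 3.91, 4.15, 4.0 and 3.97 in PN1a and 5.19, 5.04, 4.57, 4.89, 4.59 and 4.42 in PN1b, a difference of -0.76 (SE 0.18, limma adjusted p = 0.0446). Here every PN1a sample lay below every PN1b sample. It was the single member whose groups did not overlap with PN1a below, and none was so with PN1a above, against 2.38% and 1.58% of all probe sets.

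Serpina1e, read by 101574_f_at, had 2.85, 3.02, 3.03, 2.96 and 3.37 in PN1a and 4.05, 4.39, 3.47, 4.08, 3.42 and 3.37 in PN1b. PN1a 5 and PN1b 6 shared the same value, and the other PN1a samples lay below every PN1b sample. The difference of -0.75 (95% interval -1.23 to -0.27, limma adjusted p = 0.0872) did not pass the threshold. The Serpina1 probe sets are not independent measurements, since 3 of the 4 carry the suffix that marks probes shared within a gene family, and the copy that gave the signal cannot be told.

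**Figure D2:**
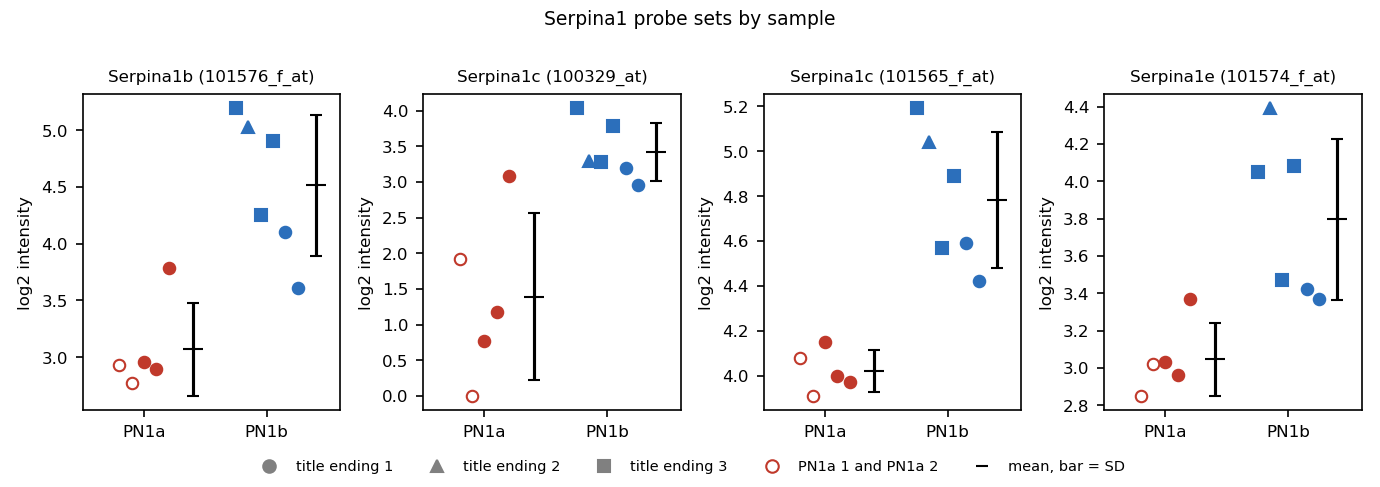
Log2 intensity of the 4 Serpina1 probe sets in each PN1a and PN1b sample, with PN1a on the left of each panel, marker shapes for the title endings, open symbols for PN1a 1 and PN1a 2, and bars for the mean and SD of each group. PN1a 5 is the highest PN1a sample in 3 of the 4 panels, and PN1b 5 and PN1b 6, which share the title ending of PN1a, lie in the lower part of PN1b.

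Within title ending 1, which leaves PN1b 5 and PN1b 6 for comparison, the differences kept their sign and were -0.79 for Serpina1b, -1.68 and -0.48 for Serpina1c and -0.35 for Serpina1e (adjusted p from 0.676 to 0.749 by limma). With PN1a 1 and PN1a 2 left out they were -1.30, -1.74, -0.74 and -0.68 (limma adjusted p from 0.0865 to 0.236). None of the calls held in either setting. Over all probe sets, 12 and 82 were called lower in these settings, against 201 in the fit reported. With PN1a 2, 3 or 4, or PN1b 1, 2, 3 or 4, left out alone, 0 of the 3 calls remained (limma adjusted p from 0.0522 to 0.106), and the sign did not change. These fits called 79 to 138 of all probe sets lower. The summed intensity of basal and myoepithelial markers (9 of 10 genes measured, 1 called lower) lay between 678 and 1509 in PN1a samples. It was 1993 to 2206 in PN1b 1 to 4, and 1171 and 1145 in PN1b 5 and PN1b 6. It did not follow Serpina1b in every sample. PN1a 3 had the highest PN1a sum, above PN1b 5 and PN1b 6, but a Serpina1b value of 2.96 against 4.10 and 3.61. The median difference of the list was -0.52, with -2.10 for Myh11 and 1.21 for Krt17. The part of these markers in the result was not tested. Adipocyte markers (8 of 10 genes measured, 1 called lower, Lpl) had a summed intensity between 62.3 and 173 in PN1a and between 210.7 and 269.6 in PN1b, with no overlap. Lpl was the highest of these genes in every sample, so the sum does not stand for the list. The median difference was 0.16, with -1.81 for Lpl, -0.51 for Pparg, -0.16 for Fabp4, 0.27 for Adipoq and 0.38 for Cidea. The part of the adipocyte markers was not tested either. Hepatocyte markers, whose cells are the main source of alpha-1-antitrypsin, were near the lowest values, with 6 of 8 below the median of every sample, Apoa1, Ahsg and Tat at the lowest value in at least 1 sample, and albumin (Alb) at 2.13 to 3.04 in PN1a and 2.24 to 3.45 in PN1b. The sum over these markers lay between 39.1 and 53.2 in PN1a and between 44 and 67.1 in PN1b, and 0 of 8 were called.

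The neighbours of the Serpina1 copies on chromosome 12 did not pass the test. Serpina3n, an acute phase serpin that inhibits granzyme B in the mouse, ranged from 3.83 to 6.22 in PN1a and from 4.55 to 5.47 in PN1b, a difference of 0.48 (95% interval -0.32 to 1.27, limma adjusted p = 0.522). PN1a 2 had the lowest value of all 11 samples and PN1a 3 and 4 the highest. Serpina6 encodes corticosteroid-binding globulin, and its 2 probe sets gave opposite signs. The values of 161326_f_at were 0.90, 1.51, 1.58, 1.77 and 1.51 in PN1a and 1.36, 1.83, 1.46, 1.38, 2.47 and 2.38 in PN1b (-0.36), and those of 96227_at were 3.81, 2.90, 2.41, 2.90 and 2.57 in PN1a and 2.61, 2.05, 2.88, 2.17, 2.79 and 2.83 in PN1b (0.36). The groups overlapped in both. Serpina12, the adipokine vaspin, differed by -0.04 (95% interval -0.90 to 0.82).

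Among the clade B serpins, which act mostly inside cells, the 7 other than the plasminogen activator inhibitor Serpinb2 all had differences above 0. Their median was 0.26, and 0 of 7 passed the test. Serpinb2 was above 0 as well (0.13), as were 48.6% of all probe sets. Within title ending 1, Serpinb6a (-0.45), Serpinb6c (-0.14) and Serpinb9 (-0.10) lay below 0, and the rest of the 7 stayed above. The largest was that of Serpinb5, which encodes maspin, a serpin of mammary epithelium described as a tumor suppressor in breast cancer. Serpinb5 had 3.72, 5.73, 5.99, 5.77 and 5.86 in PN1a, against 4.19, 3.71, 4.32, 4.53, 4.28 and 3.95 in PN1b. PN1a 2 to 5 lay above every PN1b sample, and PN1a 1 lay below all PN1b samples but PN1b 2. The difference was 1.25 (95% interval 0.47 to 2.03, SE 0.36) and did not pass the threshold (limma adjusted p = 0.0822). Without PN1a 1 it was 1.67 and passed it (adjusted p = 7.95e-04), as it did without both PN1a 1 and PN1a 2 (1.71, adjusted p = 0.00177). Within title ending 1 it was 1.30 (adjusted p = 0.676 by limma). Serpinb5 was called only in settings that left out PN1a 1.

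PN1a 1, the PN1a sample with low Serpinb5, was also low in luminal epithelial markers. Their summed intensity (11 of 13 genes measured, 0 called) was 284 in PN1a 1, 799.9 in PN1a 2 and 1587 to 2109 in PN1a 3 to 5, against 1288 to 2325 in PN1b. The sum did not follow Serpinb5 in every sample. Serpinb5 was 5.73 in PN1a 2, and 3.71 to 4.53 in the PN1b samples. The sum of basal and myoepithelial markers was 747 in PN1a 1 and 678 in PN1a 2. The part of either list in the Serpinb5 result was not tested.

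Serpinb1a, an inhibitor of neutrophil elastase and cathepsin G, had 2.65, 1.54, 2.12, 1.36 and 1.62 in PN1a and 1.26, 2.27, 1.77, 0.99, 0.77 and 1.45 in PN1b, a difference of 0.44 (95% interval -0.21 to 1.09). Its groups overlapped over most of their range. Serpinb9, the granzyme B inhibitor that protects immune cells from their own granules, differed by 0.24 (95% interval -0.52 to 1.0), with PN1a 2 lowest at 3.77 and PN1a 5 highest at 5.90. Serpinb6a differed by 0.24, Serpinb6c by 0.26, Serpinb3a by 0.34 and Serpinb9e by 0.04. None of these clade B serpins passed the test.

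Genes of plasminogen activation itself were close to equal in the group means. The differences of the 6 probe sets ran from -0.17 to 0.21, and 0 passed the test. Plau had 3.12, 2.10, 2.97, 3.59 and 3.90 in PN1a and 2.69, 2.64, 3.27, 3.1, 3.92 and 3.17 in PN1b, a difference of 0.00 (95% interval -0.68 to 0.69). The highest PN1a and PN1b samples were level, and PN1a 2 was the lowest of all 11. Plat had 6.35, 6.18, 6.78, 6.94 and 6.92 in PN1a and 6.17, 6.49, 6.15, 6.31, 6.83 and 6.6 in PN1b, a difference of 0.21 (95% interval -0.23 to 0.65). PN1a 4 and 5 were the highest of the 11 samples, and PN1a 1 and 2 lay among PN1b.

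Plaur spread more widely. It had 3.07, 2.86, 4.91, 5.58 and 5.70 in PN1a and 4.19, 3.91, 4.39, 3.93, 5.45 and 4.08 in PN1b, a difference of 0.10 (95% interval -1.02 to 1.22). PN1a 1 and 2 were the lowest of all 11 samples, PN1a 4 and 5 were the highest, and PN1b 5 stood above the other PN1b samples. With PN1a 1 and PN1a 2 left out the difference was 1.07 (limma adjusted p = 0.157), and within title ending 1 it was -0.34. Plg, which encodes plasminogen and is expressed mainly in the liver, differed by -0.17 (95% interval -0.64 to 0.30) in 101985_at and by 0.10 in 161626_f_at. Anxa2, which encodes annexin A2, a surface receptor of plasminogen and tissue plasminogen activator, ranged over 8.42 to 9.22 in PN1a and 7.99 to 9.26 in PN1b, a difference of 0.14 (95% interval -0.36 to 0.64).

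The serpins that inhibit the activators or plasmin also did not pass the test. Serpinb2, which encodes plasminogen activator inhibitor 2, had 1.16, 0.79, 2.42, 2.91 and 3.84 in PN1a and 1.27, 1.86, 1.58, 1.2, 4.13 and 2.5 in PN1b. PN1a 1 and 2 were again the lowest and PN1b 5 the highest, and the difference was 0.13 (95% interval -1.16 to 1.43). Serpinf2, which encodes alpha-2-antiplasmin, had 1.91, 3.1, 1.79, 2.28 and 1.95 in PN1a and 1.84, 1.98, 0.17, 1.59, 1.80 and 1.96 in PN1b in 101928_at, a difference of 0.65 (95% interval -0.09 to 1.38, limma adjusted p = 0.326). Its other probe set, 161916_r_at, had 1.93, 2.08, 3.04, 2.73 and 2.34 in PN1a and 2.88, 2.95, 2.56, 2.96, 2.46 and 2.70 in PN1b, a difference of -0.33. The 2 probe sets of Serpinf2 thus pointed in opposite directions. Serpina5, the protein C inhibitor, which also inhibits urokinase, differed by -0.36 (95% interval -1.0 to 0.28) and 0.16 (95% interval -0.34 to 0.66) in its 2 probe sets.

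In the group that starts clotting and controls thrombin, 0 of 11 probe sets passed the test. F3 encodes tissue factor, the receptor that starts the clotting cascade when blood meets it. It had 3.97, 4.75, 6.97, 7.57 and 7.46 in PN1a and 7.54, 7.32, 7.74, 8.00, 6.93 and 6.81 in PN1b. PN1a 1 and 2 lay far below all other samples, and PN1a 3 to 5 lay within the range of PN1b. The difference was -1.25 (95% interval -2.53 to 0.03, limma adjusted p = 0.277), and with PN1a 1 and PN1a 2 left out it was -0.06.

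Thbd encodes thrombomodulin, the endothelial protein that turns thrombin towards activation of protein C. Its 2 probe sets gave the same picture. The values of 104601_at were 0.52, 1.63, 3.15, 3.79 and 4.72 in PN1a and 3.25, 2.57, 3.75, 3.55, 4.72 and 4.67 in PN1b, a difference of -0.99 (95% interval -2.39 to 0.42). The values of 162023_f_at were 0.60, 0.70, 3.78, 4.0 and 4.69 in PN1a and 3.47, 2.97, 3.73, 3.51, 5.27 and 4.62 in PN1b, a difference of -1.17 (95% interval -2.75 to 0.40). In both, PN1a 1 and 2 were the lowest of the 11 samples, and without them the differences were 0.14 and 0.23.

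**Figure D3:**
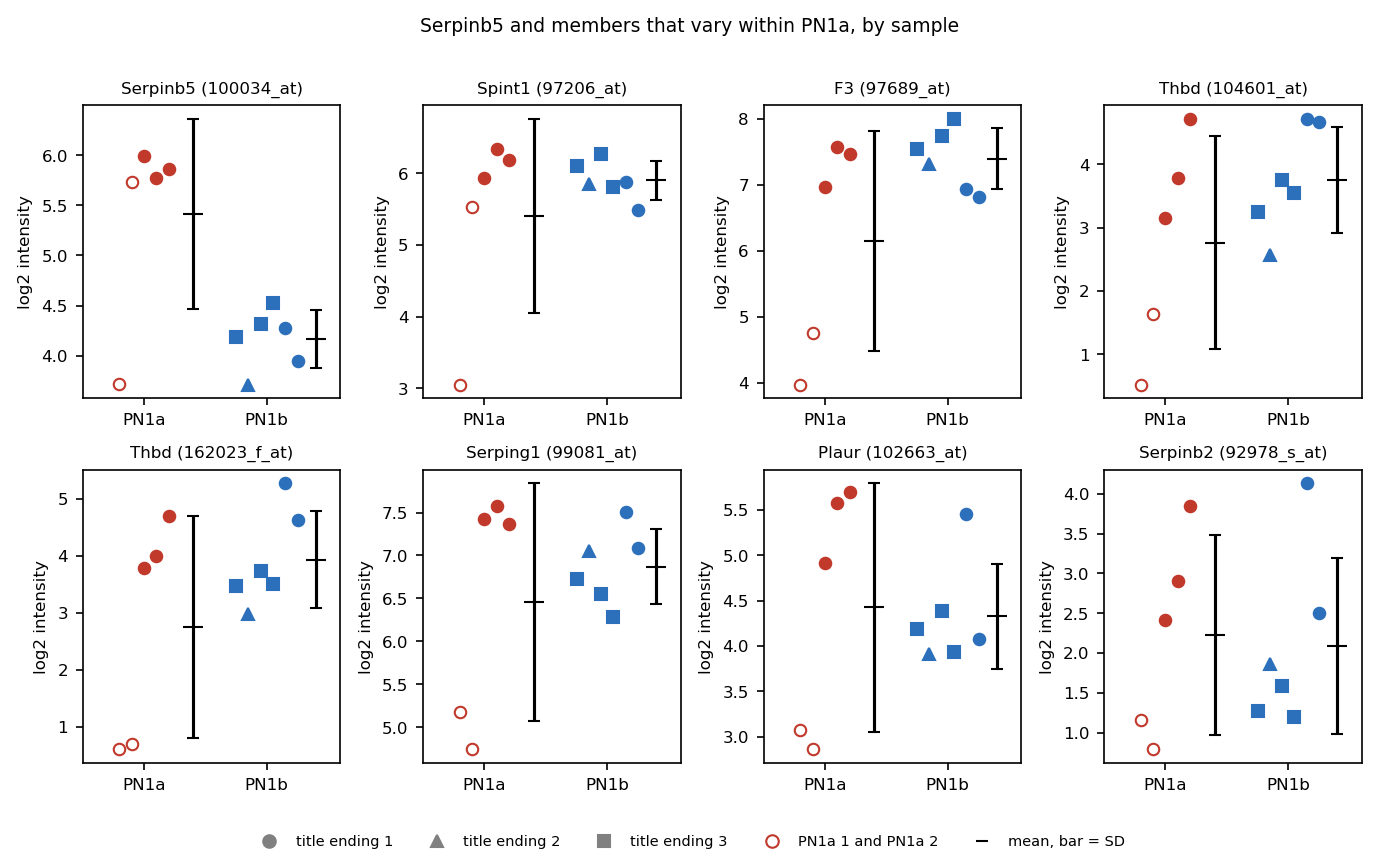
Log2 intensity in each PN1a and PN1b sample of Serpinb5 and 7 probe sets that vary within PN1a, with PN1a on the left of each panel, marker shapes for the title endings, open symbols for PN1a 1 and PN1a 2, and bars for the mean and SD of each group. F3, both Thbd probe sets, Serping1, Plaur and Serpinb2 have PN1a 1 and PN1a 2 at the bottom, whereas Serpinb5 and Spint1 have PN1a 1 alone below the other PN1a samples.

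Serpind1, heparin cofactor II, which inhibits thrombin, had 2.82, 3.19, 2.74, 2.93 and 2.60 in PN1a and 2.22, 2.63, 1.87, 2.35, 2.21 and 2.37 in PN1b. All PN1a samples but PN1a 5 lay above every PN1b sample. The difference of 0.58 (95% interval 0.19 to 0.97, SE 0.18) did not pass the threshold (limma adjusted p = 0.105), and it was 0.57 within title ending 1 and 0.48 without PN1a 1 and PN1a 2. Serpina10, which inhibits factor Xa together with protein Z, had 1.70, 1.57, 1.34, 1.5 and 0.64 in PN1a and 0.80, 0.08, 0.00, 1.18, 1.16 and 1.18 in PN1b, a difference of 0.62 (95% interval 0.00 to 1.23, limma adjusted p = 0.262). All PN1a samples but PN1a 5 lay above all PN1b samples, at values close to the lowest of the table. Serpinc1, antithrombin, differed by 0.03 (95% interval -0.66 to 0.72). Tfpi, which blocks tissue factor, differed by -0.33, and Tfpi2, an inhibitor of plasmin and other proteases, by 0.27. The 3 probe sets of F2r, the thrombin receptor PAR1, differed by 0.23, 0.38 and 0.24, with PN1a 1 highest of all samples in each.

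The remaining inhibitors did not pass the test either. Spint1 encodes an epithelial membrane inhibitor of matriptase and of the hepatocyte growth factor activator. Spint1 had 3.05, 5.53, 5.93, 6.34 and 6.18 in PN1a and 6.10, 5.85, 6.27, 5.81, 5.88 and 5.48 in PN1b. PN1a 1 lay far below the other 10 samples, and the difference of -0.49 (95% interval -1.52 to 0.54) was 0.10 without it. Spint2, its relative, differed by 0.18 (95% interval -0.39 to 0.75).

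Slpi, the secretory leukocyte protease inhibitor of epithelia and neutrophils, was read by 4 probe sets. In 92858_at it had 8.97, 7.93, 7.0, 7.08 and 6.94 in PN1a and 8.02, 7.52, 7.02, 7.29, 8.55 and 8.55 in PN1b, a difference of -0.24 (95% interval -1.11 to 0.62). PN1a 1 was the highest of all samples, PN1b 5 and 6 came next, and PN1a 3 to 5 lay with PN1b 3 at the bottom. In 161650_at it had 7.45, 6.38, 5.44, 5.63 and 5.61 in PN1a and 6.38, 5.78, 5.69, 5.83, 7.01 and 7.54 in PN1b (-0.27). The same samples were high, with PN1b 6 now above PN1a 1. In 162329_r_at the values were 6.63, 6.90, 6.42, 5.83 and 6.03 in PN1a and 5.73, 6.41, 5.57, 5.77, 6.36 and 6.31 in PN1b (0.34). In 162333_r_at they were 5.69, 5.14, 4.94, 4.56 and 4.64 in PN1a and 4.70, 5.36, 4.53, 4.89, 5.36 and 5.35 in PN1b (-0.04). The groups overlapped in all 4 probe sets.

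Serping1 encodes the C1 inhibitor, which restrains complement and the contact system. It had 5.17, 4.74, 7.43, 7.58 and 7.37 in PN1a and 6.73, 7.05, 6.55, 6.28, 7.51 and 7.09 in PN1b, a difference of -0.41 (95% interval -1.5 to 0.68), and of 0.59 without PN1a 1 and PN1a 2 (limma adjusted p = 0.294). PN1a 1 and 2 were the lowest of all samples, and PN1a 3 to 5 lay at the upper end of PN1b. Serpinf1, the pigment epithelium-derived factor, differed by 0.16 (95% interval -0.44 to 0.76) in 93574_at and by -0.36 in 162429_r_at. Serpini1, neuroserpin, which inhibits tissue plasminogen activator, differed by 0.03 (95% interval -0.43 to 0.49).

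**Figure D4:**
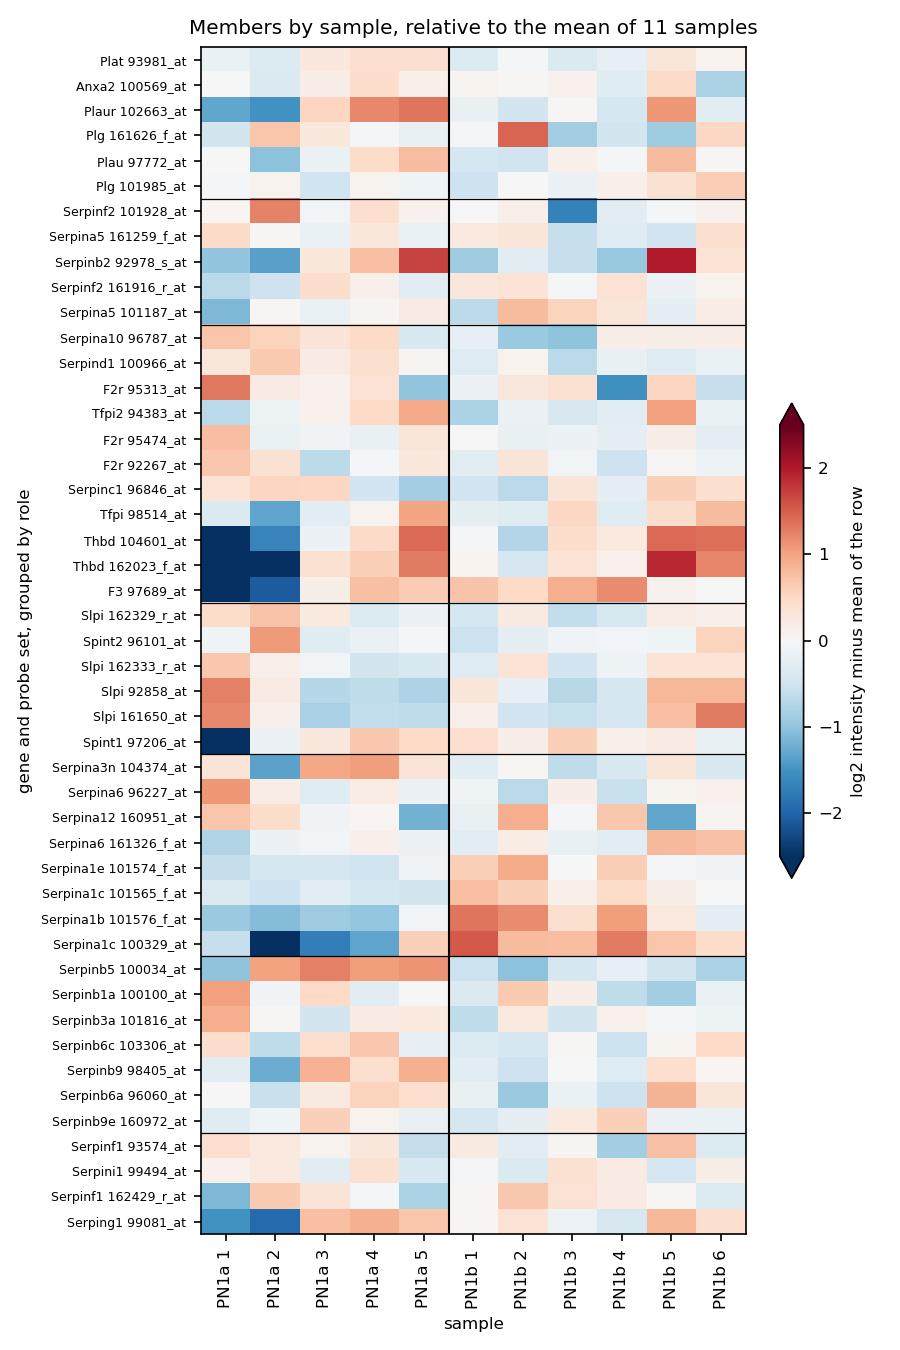
Deviation of each of the 47 probe sets from its own mean over the 11 samples, on the log2 scale, with PN1a samples in the left columns, PN1b samples in the right columns, and rows in groups by role. The Serpina1 rows are low across PN1a, and PN1a 1 and PN1a 2 are low in F3, Thbd, Plaur, Serping1 and Serpinb2.

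Counted over all members, PN1a 1 and PN1a 2 were both below all other samples in 8 probe sets (17.0%), against 10.1% of all probe sets. These were F3, Plaur, Serpinb2, Serpinf2 161916_r_at, Serping1, Tfpi and both of Thbd. Between PN1a 1 and 2 and PN1a 3 to 5 the mean differed by -2.97 for F3, by -2.43 for Plaur, by -2.51 for Serping1 and by -2.81 and -3.51 for Thbd. They were both above all other samples in 3 probe sets (6.38%), of F2r, Serpina10 and Slpi, against 8.84% of all probe sets. Endothelial markers had a summed intensity (9 of 10 genes measured, 0 called) of 244 and 118 in PN1a 1 and 2, 346 to 405 in PN1a 3 to 5 and 268 to 408 in PN1b. Like Thbd, the sum was lowest in PN1a 1 and 2. The sum in PN1a 1 was near that of PN1b 4 (268), whereas the Thbd values were 0.52 and 0.60 against 3.55 and 3.51. Eng was the highest of these genes in every sample, so the sum does not stand for the list. In PN1a 1 and PN1b 4, Eng had 6.85 and 6.41, whereas Vwf had 1.34 and 4.98. On the log2 scale the listed genes deviated from their own means by -0.73 on average in PN1a 1 and by -0.08 in PN1b 4. Fibroblast markers (9 of 10 genes measured, 0 called) summed to 2318 and 674 in PN1a 1 and 2, 2704 to 2903 in PN1a 3 to 5 and 1972 to 3431 in PN1b. The genes of this list did not move together in PN1a 1, so the sum does not stand for the list. Col1a1 (9.51) and Col1a2 (9.72) were highest of all samples there. Lum, Dcn and Dpt had 3.44, 7.52 and 2.39, against 6.89 to 7.35, 9.41 to 9.68 and 5.06 to 6.13 in PN1a 3 to 5. The part of the endothelial and fibroblast markers in the values of PN1a 1 and 2 was not tested.

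The SD was larger in PN1a than in PN1b in 30 of the 47 members (63.8%), against 57.3% of all probe sets. The sign of the difference turned in 12 members within title ending 1 and in 10 with PN1a 1 and PN1a 2 left out. All 4 Serpina1 probe sets, Serpinb5 and Serpind1 kept their sign in both.

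**Figure D5:**
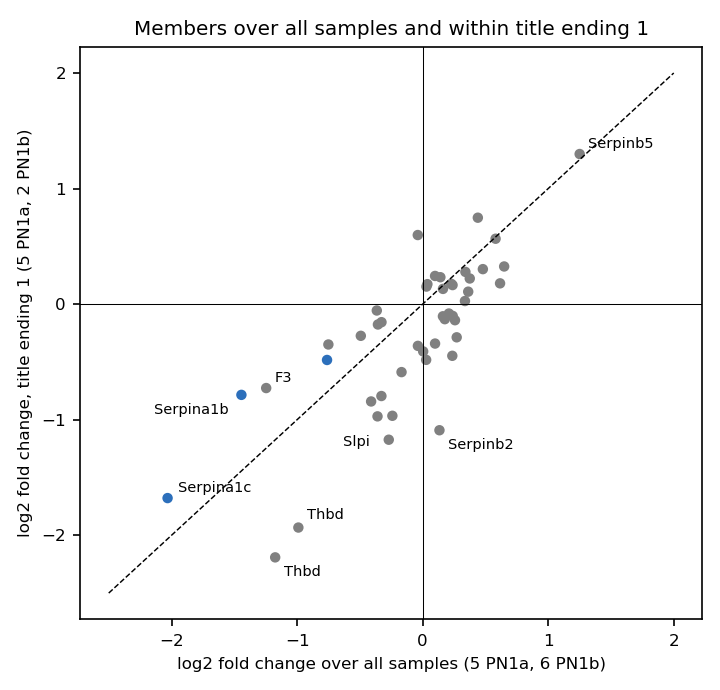
Log2 fold change, PN1a minus PN1b, over all 11 samples on the x axis against that over the 7 samples with title ending 1 on the y axis, for the 47 members, with blue for the 3 called lower and a dashed line where both are equal. The Serpina1 points and Serpinb5 lie on the same side of 0 on both axes, with Serpina1b at -1.44 and -0.79 and Serpinb5 at 1.25 and 1.30.

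Of the other genes of coagulation and fibrinolysis, 39 of 48 listed were measured, 3 were higher in PN1a and 0 lower, and their median log2 fold change was 0.05. Over all probe sets, 0.869% were called higher and 1.62% lower, and the median was -0.01. Gas6, a vitamin K-dependent ligand of the TAM receptors related to protein S, rose by 3.23 (SE 0.30, limma adjusted p = 5.11e-05), with PN1a samples at 8.40 to 9.75 and PN1b samples at 5.36 to 6.43. Fgb and Fgg, the beta and gamma chains of fibrinogen, were also called higher. Fgb had 4.66, 0.00, 3.86, 2.22 and 5.63 in PN1a and 0.00 to 0.53 in PN1b, and since many values lie at the lowest of the table no size is given. Fgg had 2.15 to 3.12 in PN1a and 0.00 to 2.04 in PN1b, without overlap. Of those not called, Vldlr, a receptor that takes up serpin and protease complexes, had a difference of -0.62 and Proc, protein C, of 0.80 (limma adjusted p = 0.199 each).

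Of a list of proteases, many of them targets of serpins, all 18 were measured, 1 was higher and 0 lower, with a median of 0.05. The list also holds the metalloproteinases Mmp3 and Mmp9, so not every gene in it is a known serpin target. The shares over all probe sets were again 0.869% higher and 1.62% lower, with a median of -0.01. Ctss, cathepsin S of macrophages and other antigen-presenting cells, rose by 1.29 (SE 0.29, limma adjusted p = 0.0348), with 6.77 to 7.70 in PN1a and 4.79 to 6.50 in PN1b. Macrophage markers (12 of 12 genes measured, 2 called higher) had a summed intensity between 852 and 1384 in PN1a and between 320 and 906 in PN1b. Cd14, the highest of these genes in every sample but PN1a 1, differed by 0.20, so the sum does not stand for the list. The median difference of the list was 1.16. In 9 of the 12 genes PN1a was higher with an unadjusted limma p under 0.05, against 18.9% of all probe sets in either direction. Their part in the Ctss result was not tested. Prtn3, proteinase 3 of neutrophils, a protease that alpha-1-antitrypsin inhibits, had 3.64, 3.63, 3.70, 3.88 and 2.37 in PN1a and 1.02 to 3.0 in PN1b, a difference of 1.2 (limma adjusted p = 0.100). Elane, the neutrophil elastase that is the main target of alpha-1-antitrypsin, had a difference of -0.21 (limma adjusted p = 0.682). Neutrophil markers (10 of 10 genes measured, 0 called) had a median difference of 0.05 and a summed intensity between 578 and 1853 in PN1a and between 307 and 1165 in PN1b. Lcn2 or Ltf, the latter also a milk protein gene, was the highest of these genes in every sample, so the sum does not stand for the list. The differences were 0.68 for Lcn2, 1.19 for Ltf and 0.79 for Mpo, against -0.65 for S100a8, -0.66 for S100a9 and -0.98 for Ngp. The part of the neutrophil markers in these values was not tested. Mcpt4, a mast cell chymase, had a difference of -0.99 (limma adjusted p = 0.103).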

How the data were processed

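RNA of 5 PN1a and 6 PN1b glands was hybridized to Affymetrix MG_U74Av2 arrays. With dChip (version not given in the sources used here) the authors fitted the perfect match minus mismatch model after quantile normalization, and deposited linear intensity values of 12488 probe sets. The 66 controls of the array were not tested. No scanner files were used. PN1a samples had median intensities of 8.57 to 8.94 and PN1b samples of 8.88 to 9.51, and 0.817% of the values lay at the lowest value. Precision is limited by how many arrays there were. Log2 of the intensities, with no pseudocount, was compared with limma 3.58.1 in R 4.3.3 (lmFit and eBayes, two-sided, no covariate, since the methods give none). Benjamini-Hochberg adjustment ran over 12422 probe sets. The steps were tested on simulated data.

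Gene symbols came from the annotation of the array and were updated through gene identifiers, so that 10833 probe sets carried 1 symbol, 396 several and 1193 none. In the pathway and marker lists the probe set with the highest mean stood for a gene. Values per sample were given for called members, for the 6 members with the smallest p in each direction that were not called, for the genes of urokinase, its receptor, tissue plasminogen activator, maspin, Spint1 and Slpi, and for further probe sets of these genes. Serping1, Serpinb2, Prtn3, Elane and Fgb were added after their values were seen. The members and lists were chosen with earlier results of these data known. Python 3.11.15 with matplotlib 3.10.9 drew the figures.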

Additional observations from a re-analysis of the deposited data

Results flagged for a closer look

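A single sample stood far from the rest of its group in 8 of 94 member groups tested, and chance gives about 1 in 20. PN1a 1 was lowest in PN1a for Serpinb5 (3.72), Spint1 (3.05) and Serpina5 101187_at (0.00). PN1a 2 was highest in PN1a for Spint2 (2.53), and PN1a 5 was highest in PN1a for Serpina1b (3.79). In PN1b, PN1b 5 was highest for Plaur (5.45) and Tfpi2 (4.40), and PN1b 3 was lowest for Serpinf2 101928_at (0.17).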

How the results depend on the processing

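The count of members called lower, 3 in the fit reported, was 1 with the methods' t-test after Benjamini-Hochberg, 1 with log2(value + 16), and 0 with title ending as a block, within title ending 1, with title ending as a random block, and with PN1a 1 and PN1a 2 left out together. Calls over the whole array fell as well. In the same order, 95, 148, 19, 12, 104 and 82 of all probe sets were called lower, against 201 in the fit reported. The count of members called higher was 0, and 1 with PN1a 1 and PN1a 2 left out, which was Serpinb5. Leaving out each sample in turn gave 0 to 3 members lower and 0 to 1 higher, and over all probe sets 79 to 377 lower and 44 to 182 higher. The count of members lower was 0 without PN1a 2, 3 or 4 or without PN1b 1, 2, 3 or 4, was 1 without PN1a 1, 2 without PN1a 5, and 3 without PN1b 5 or PN1b 6. Other settings kept it at 2 to 4, and log2(value + 1), chosen after seeing the data, at 3. Centring on the sample median gave 155 probe sets higher and 186 lower over the whole array, against 108 and 201. The sign turned for Plat (-0.081 with the block and within title ending 1), Plau (-0.41 in both, -0.051 with the random block, -0.19 to 0.26 with each sample left out), Plaur (-0.34 in both, -0.22 to 0.49 with each sample left out), Slpi 162333_r_at (0.034 with quantile normalization repeated, 0.022 centred, -0.21 to 0.071 with each sample left out), Spint1 (-0.73 to 0.10 with each sample left out, 0.25 without PN1a 1 and 2) and Thbd (0.14 and 0.23 without PN1a 1 and 2). The causes were not tested. No paired analysis was possible because the titles carry no shared replicate numbers. With 5 and 6 arrays, and many members near the lowest values, small differences were not detectable.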

Other observations

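The array also holds 3 probe sets annotated to several Serpina1 copies at once, which were not members. Their PN1a minus PN1b differences were -1.54 for 101575_i_at (mean 3.48 in PN1a and 5.01 in PN1b), -0.67 for 93109_f_at (3.79 and 4.47) and -0.32 for 101572_f_at (2.252 and 2.575). In 101575_i_at every PN1a sample (3.06 to 3.97) lay below every PN1b sample (4.36 to 5.63). These probe sets share targets with the members and are no separate evidence of them.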
